A study of Mus musculus with 6 samples.

Results

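Focal adhesions are the sites where integrins, the receptors for extracellular matrix, are joined to the actin cytoskeleton. Talin binds the integrin tail, vinculin reinforces the bond between talin and actin, and filamin, alpha-actinin, zyxin and VASP crosslink actin or steer its assembly. FAK and Src are tyrosine kinases that act there through docking proteins such as p130Cas. Integrin-linked kinase (ILK) works at the same sites as a scaffold, with PINCH and parvin as its partners. In the collecting duct such adhesions hold the epithelium to its basement membrane.

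The account covers 10 genes of this machinery, listed by name and not by their values: Tln1, Tln2, Vcl, Flna, Actn4, Zyx, Vasp, Src, Bcar1 and Ptk2. Each was read from its probe set with exactly 1 gene symbol in the platform annotation, the brightest where there were several. Of the 10 genes 9 had such a probe set, 1 each, out of 22180 genes with one, and all 9 were among the 13308 genes tested. Ptk2, which encodes FAK, was listed for no probe set and was not analysed here.

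The cells were a mouse inner medullary collecting duct (IMCD) line, an epithelial model of the deepest part of the kidney's collecting duct. The ILK-T173I group, 3 arrays, came from cells stably transduced with a bicistronic lentivirus for GFP and the missense variant T173I of ILK, and the wild-type ILK group, also 3 arrays, from cells with the same kind of vector for wild-type ILK. All cells had been given EGF at 20 ng/ml for 15 minutes and then incubated for 1 hour, and no array lacked EGF or an ILK vector, so the comparison is between the variants under EGF. The labels call the arrays of a group biological replicates. The sources used here do not give how many lines stand behind each group, or whether the cells still expressed their own Ilk. If each group was 1 line, the line and the variant cannot be told apart. If the replicates were not separate cultures, the p-values measure technical spread.

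The values are log2 signals normalized by RMA, in which a difference of 1 is a 2-fold difference. RMA makes the arrays alike in distribution, so a shift shared by most genes would not be seen. Array medians were 5.45 to 5.52. The 3 probe sets that list Ilk all list a second gene too, so the introduced gene could not be checked by itself. Arrays of the T173I group resembled each other less (Pearson r over the tested genes 0.964 to 0.983) than those of the wild-type group (0.989 to 0.993). Of 13 measured markers of collecting duct epithelium 12 were bright enough to be tested, among them Cdh1, Epcam, Pax2 and Hoxb7, while Aqp3 was not. The mean of the 13 markers was 8.85 to 9.004 on T173I arrays and 8.81 to 8.92 on wild-type arrays, with markers on both sides. Of the 12, 4 lay wholly above wild type on the T173I arrays (Krt8, Krt18, Krt7 and Hoxb7; 7.23% of all tested genes did) and 1 wholly below (Gata3; 7.95%). Krt8 was at 10.33 to 10.74 on T173I arrays and 9.78 to 9.97 on wild-type arrays, and Gata3 at 6.12 to 6.47 on T173I arrays and 6.91 to 7.34 on wild-type arrays. Aqp2, the water channel of principal cells, was dim, at 5.97 to 6.25 on T173I arrays and 6.01 to 6.09 on wild-type arrays. Of the markers of other cells, 4 of 9 for fibroblasts, 1 of 4 for leukocytes and 0 of 3 for endothelium were bright enough. The leukocyte gene was Cd68, which lay at 8.40 to 9.63 on T173I arrays and 7.47 to 8.26 on wild-type arrays, whereas Ptprc, the defining leukocyte marker, lay at 3.55 to 3.81 on T173I arrays and 3.64 to 3.73 on wild-type arrays. The mean of the 9 fibroblast markers was 5.11 to 5.49 on T173I arrays and 5.07 to 5.38 on wild-type arrays. These means hide single markers that varied between arrays. Postn, a fibroblast marker, was at 8.05, 5.49 and 4.30 on T173I replicates 1, 2 and 3, and at 4.65 to 6.26 on wild-type arrays. Cdh16, a collecting duct marker, was at 8.54, 7.10 and 7.24 on T173I replicates 1, 2 and 3, and at 7.09 to 7.84 on wild-type arrays. What part these markers have in the results below was not tested.

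None of the 9 measured genes differed between T173I and wild-type ILK beyond the spread of the arrays. In limma's test 0 of the 9 had an adjusted p under 0.05, and over all 13308 genes the share was 0% as well. At an unadjusted p under 0.05 the count was also 0 of 9, where 10.2% of all tested genes passed. In none of the 9 genes did the 3 T173I arrays lie wholly above or below the 3 wild-type arrays, which was so in 15.2% of all tested genes. With only 9 genes, these counts do not set them apart from all tested genes. Of the 9 differences 8 were above 0, with a median of 0.092 log2 units. Over all tested genes 47.4% of differences were above 0 and the median was -0.011.

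**Figure D1:**
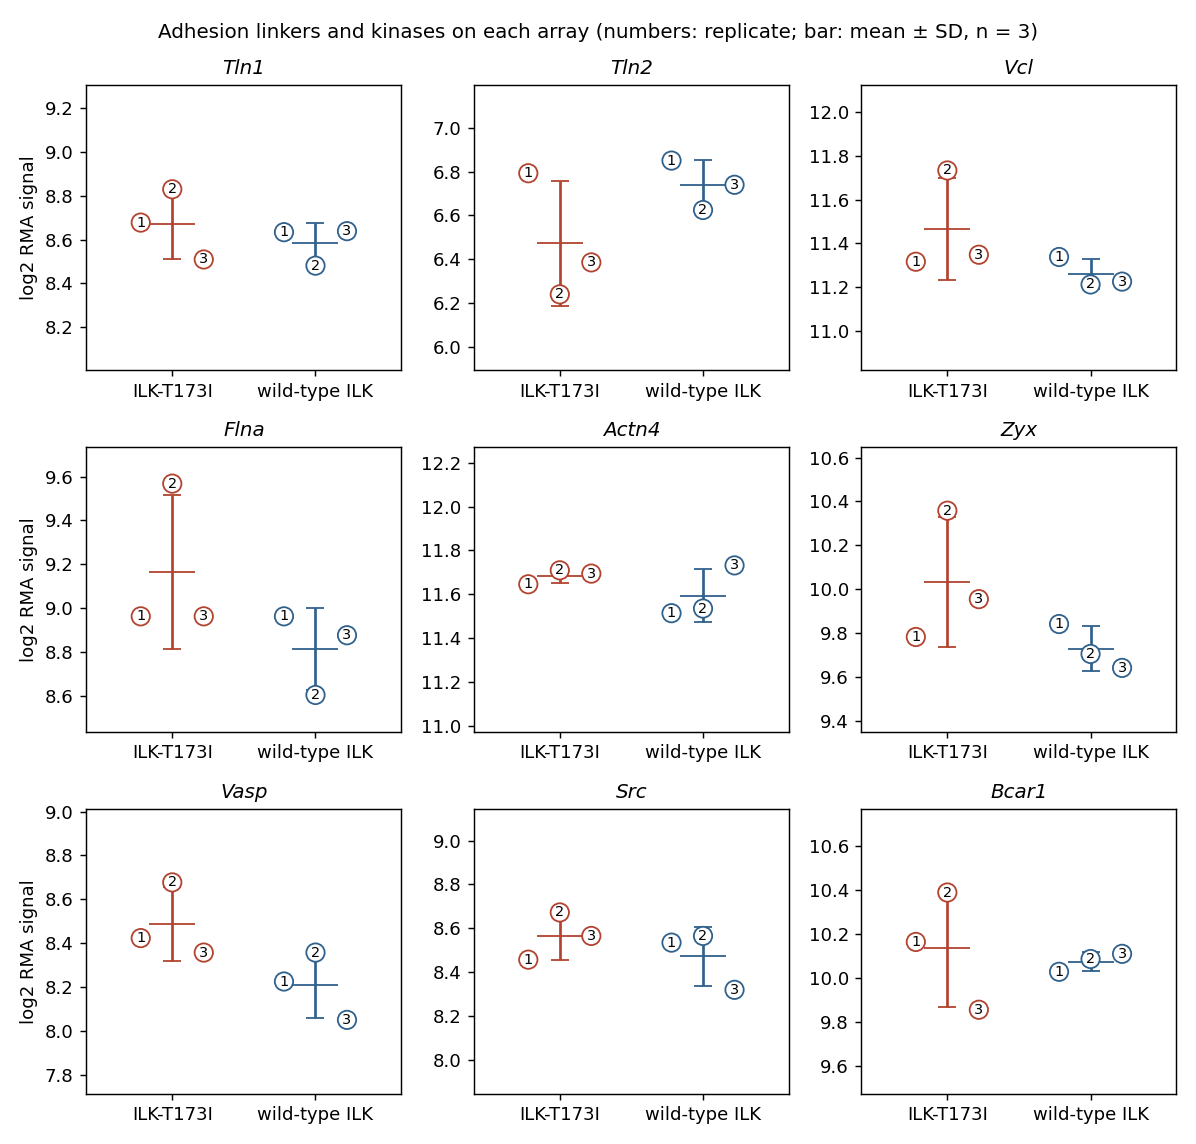
Log2 RMA signal of the 9 measured genes on each array, T173I at the left and wild-type ILK at the right of every panel; numbered circles are replicates, horizontal bars the means and whiskers the SD (n = 3 each). All panels span the same range of log2 units; T173I replicate 2 is the highest array for 7 genes and the lowest for Tln2, and in every panel the groups overlap.

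The 9 genes were also read on each array by itself. T173I replicate 2 was the highest of the 6 arrays for 7 of the 9 genes, which held for 22.4% of all tested genes. For Tln2 it was the lowest, as for 31.2% of all tested genes, and it lay below the wild-type range (39.8%). No other array was so often the highest or the lowest over all tested genes. In array weighting T173I replicate 2 had the smallest weight, 0.36, next to 0.41 for T173I replicate 1, 1.85 for T173I replicate 3 and 1.13 to 2.62 for wild-type arrays. It lay above the wild-type range for the same 7 genes, as it did for 31.2% of all tested genes. T173I replicate 1 lay within the wild-type range for 6 of 9 genes (46.1% of all tested genes) and T173I replicate 3 for 5 of 9 (36.6%). Values equal to the highest wild-type array counted as within it: Flna on replicates 1 and 3, Src and Vasp on replicate 3. Of the 9 genes, 8, 8 and 6 were above their wild-type mean on T173I replicates 1, 2 and 3. The shares of all tested genes were 52.4%, 45.3% and 47.7%. On wild-type replicates 1, 2 and 3 the counts were 7, 3 and 5 (49.7%, 51.7% and 46.8%). The median of the 9 genes relative to their wild-type means was 0.058, 0.31 and 0.092 on T173I replicates 1, 2 and 3, against 0.062, -0.046 and 0.0016 on wild-type replicates 1, 2 and 3. The median of all tested genes on T173I replicate 2 was -0.025, a value that RMA holds near 0 by its construction.

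**Figure D2:**
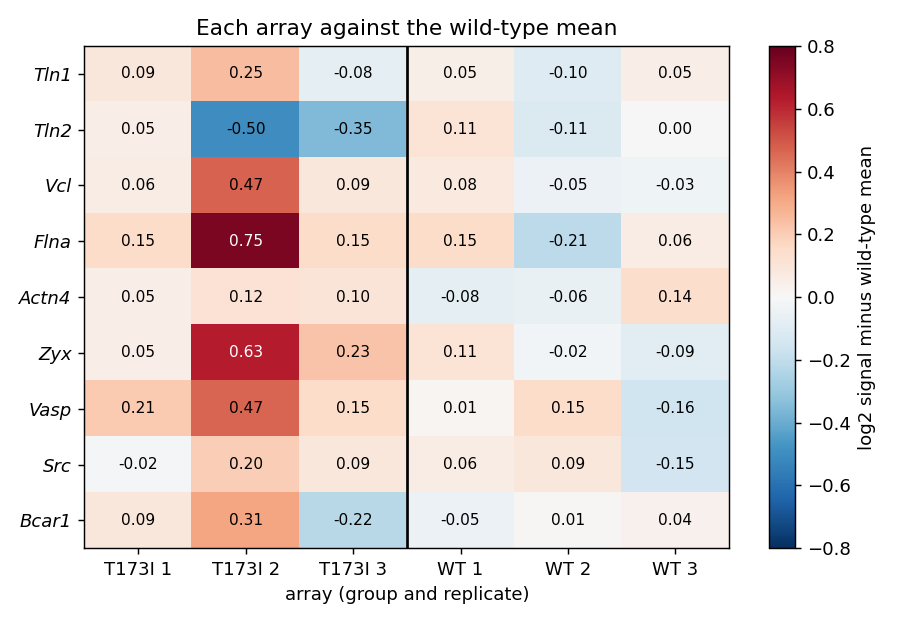
Log2 signal of each gene on each array minus that gene's mean over the 3 wild-type arrays, with T173I arrays left of the line and wild-type arrays right of it (red higher, blue lower). Flna, Zyx, Vcl and Vasp are 0.47 to 0.75 above the wild-type mean on T173I replicate 2, and Tln2 is 0.50 below it on that array and 0.35 below it on replicate 3.

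The talins join integrin tails to actin and switch integrins to their active state. Tln1, the widely expressed talin, had log2 signals of 8.68, 8.83 and 8.51 on T173I replicates 1, 2 and 3, against 8.63, 8.48 and 8.64 on wild-type replicates 1, 2 and 3. The lowest T173I array lay inside the wild-type range, and the difference was 0.088 (95% interval -0.17 to 0.34). That interval holds differences of either sign (limma, adjusted p = 0.77). Leaving out T173I replicate 2 gave 0.0090, leaving out T173I replicate 3 gave 0.17 and leaving out wild-type replicate 2 gave 0.036.

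Tln2, the paralogue known best from heart, brain and muscle, was the only one of the 9 genes with a lower mean in T173I. Its signals were 6.79, 6.24 and 6.39 on T173I replicates 1, 2 and 3, against 6.85, 6.62 and 6.74 on wild-type replicates 1, 2 and 3. Replicates 2 and 3 of T173I lay below all wild-type arrays, and replicate 1 lay among them. The difference was -0.27 (95% interval -0.63 to 0.10, limma adjusted p = 0.56). Without T173I replicate 2 it was -0.15 (limma, unadjusted p = 0.35). Without T173I replicate 1 it was -0.43 with an interval of -0.68 to -0.17, unadjusted p = 0.0073 and adjusted p = 0.11 in limma's fit. In that fit, where 22.1% of all tested genes had an unadjusted p under 0.05 and 1.17% an adjusted one, Tln2 and Zyx were the 2 of 9 genes with an unadjusted p under 0.05, and 0 of the 9 passed the adjusted threshold.

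The talins were also set against each other within each array, a comparison chosen after their values were seen. The log2 signal of Tln1 minus that of Tln2 was 1.88, 2.59 and 2.12 on T173I replicates 1, 2 and 3, against 1.78, 1.86 and 1.90 on wild-type replicates 1, 2 and 3. This number shifts with probe brightness and says nothing of which talin is more abundant, so only its change between groups was read. It averaged 2.20 ± 0.36 in T173I and 1.85 ± 0.058 in wild type (SD, n = 3 each), a difference of 0.35 (exact two-sided permutation p = 0.2, where 0.1 is the smallest possible). Without T173I replicate 2 the difference was 0.16.

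Vcl, Flna and Zyx had the most similar profiles over the arrays, and their promoters are shown for that reason. Vcl encodes vinculin, which binds talin and actin and is recruited as adhesions come under tension. Flna encodes filamin A, a large crosslinker of actin filaments that also binds integrin tails. Zyx encodes zyxin, a LIM-domain protein that gathers VASP at strained actin fibres. The 250 bases before the transcription start are from RefSeq on build GRCm38.p6, at chr14:20929148-20929397 on the plus strand for Vcl, chrX:74246535-74246784 on the minus strand for Flna and chr6:42349578-42349827 on the plus strand for Zyx. Capitals mark a CArG box, the site bound by the serum response factor SRF, and the letters GGAATG, the core of TEAD sites, each on either strand. They also mark, on either strand, the letters TGANTCA, a pattern wider than the core of AP-1 sites, which has G or C as its middle base.
Vcl: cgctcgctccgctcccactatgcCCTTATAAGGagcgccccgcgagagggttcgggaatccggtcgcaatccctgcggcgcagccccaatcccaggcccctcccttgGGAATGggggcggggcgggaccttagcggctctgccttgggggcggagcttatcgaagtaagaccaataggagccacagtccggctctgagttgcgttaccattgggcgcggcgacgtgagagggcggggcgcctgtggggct
Flna: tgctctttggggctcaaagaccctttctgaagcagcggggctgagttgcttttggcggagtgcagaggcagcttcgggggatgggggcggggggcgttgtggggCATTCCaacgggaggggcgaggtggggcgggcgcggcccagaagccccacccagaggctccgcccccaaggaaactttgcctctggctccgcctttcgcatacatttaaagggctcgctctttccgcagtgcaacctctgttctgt
Zyx: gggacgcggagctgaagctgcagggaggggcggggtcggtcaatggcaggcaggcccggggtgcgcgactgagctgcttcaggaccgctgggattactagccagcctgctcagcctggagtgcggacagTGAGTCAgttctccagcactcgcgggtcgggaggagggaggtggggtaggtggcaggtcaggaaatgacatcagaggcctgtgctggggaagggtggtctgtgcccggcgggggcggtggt

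The promoter table matched 8 of the 10 genes, with 9 promoters, 2 of them for Bcar1. The Vcl window held the only CArG box, CCTTATAAGG, starting 227 bases before the transcription start. Of all 32851 promoter windows of this length 1.47% held a CArG box. GGAATG was found in the windows of Vcl, Flna and Actn4 (12.6% of all windows), TGANTCA in those of Zyx and Actn4 (6.75%), and GGGCGG, the core of Sp1 sites, in 7 of the 9 windows (32.7%). The TGANTCA match was TGAGTCA in Zyx and TGAATCA, with A as its middle base, in Actn4. In the Vcl window 1 pair of matches overlapped, and in those of Flna and Zyx none did. The 9 windows had a GC content of 55.6% to 82.8%, against a median of 52.4% over all windows, and GGGCGG holds no other base than G and C. A match describes the letters of a window and not a bound site.

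Vcl had log2 signals of 11.32, 11.73 and 11.35 on T173I replicates 1, 2 and 3, against 11.34, 11.21 and 11.23 on wild-type replicates 1, 2 and 3. One array, T173I replicate 2, stood well above the rest. T173I replicate 3 also lay above all wild-type arrays, at 11.35 against 11.34 for the highest of them, and T173I replicate 1 lay within the wild-type range. The difference was 0.21 (95% interval -0.10 to 0.51, limma adjusted p = 0.57), and 0.074 without T173I replicate 2.

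Flna had log2 signals of 8.96, 9.57 and 8.96 on T173I replicates 1, 2 and 3, against 8.96, 8.60 and 8.88 on wild-type replicates 1, 2 and 3. T173I replicates 1 and 3 and wild-type replicate 1 held the same value to the last deposited digit, a kind of tie that some pair of arrays showed in 19.8% of all tested genes. The difference of 0.35, the largest of the 9 genes in size, had a 95% interval of -0.11 to 0.81 (limma, adjusted p = 0.54). Without T173I replicate 2 it was 0.15.

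Zyx had log2 signals of 9.78, 10.36 and 9.95 on T173I replicates 1, 2 and 3, against 9.84, 9.70 and 9.64 on wild-type replicates 1, 2 and 3. Replicates 2 and 3 of T173I lay above all wild-type arrays and replicate 1 below the highest of them. The group means were 10.03 ± 0.30 in T173I and 9.73 ± 0.10 in wild type (SD, n = 3 each), a 1.23-fold difference (limma, adjusted p = 0.53). On the log2 scale it was 0.30 (95% interval -0.071 to 0.68), and 0.14 without T173I replicate 2. Without T173I replicate 1 it was 0.43 with an interval of 0.072 to 0.78 (limma, adjusted p = 0.17).

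Across the 6 arrays Vcl correlated with Zyx at r = 0.98, Vcl with Flna at r = 0.96 and Zyx with Flna at r = 0.92. Without T173I replicate 2 these values were 0.90, 0.81 and 0.54. Tln2 had negative correlations with the other 8 genes over all 6 arrays, from -0.81 with Zyx to -0.25 with Tln1. Without T173I replicate 2 they ran from -0.50 with Zyx to 0.78 with Tln1, and those with Bcar1 (0.78) and Flna (0.12) were above 0 as well, so the opposite course of Tln2 rested on that array for these 3 genes. The points of these correlations share the arrays and their normalization, and they describe these 6 arrays alone.

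Vasp, whose product lengthens actin filaments and is brought to adhesions by zyxin, had the smallest unadjusted p of the 9 genes. Its signals were 8.42, 8.68 and 8.36 on T173I replicates 1, 2 and 3, against 8.23, 8.36 and 8.05 on wild-type replicates 1, 2 and 3. All T173I arrays lay at or above the highest wild-type array, T173I replicate 3 and wild-type replicate 2 being equal to the last deposited digit. The difference was 0.28 (95% interval -0.021 to 0.57), unadjusted p = 0.064 and adjusted p = 0.49 in limma's test. It was 0.18 without T173I replicate 2 and 0.31 without replicate 1.

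Actn4, which encodes an alpha-actinin of non-muscle cells that bundles actin behind adhesions, was the least variable of the 9 genes in T173I. Its signals were 11.65, 11.71 and 11.69 on T173I replicates 1, 2 and 3, against 11.51, 11.53 and 11.73 on wild-type replicates 1, 2 and 3. The highest of the 6 arrays was wild-type replicate 3, so T173I replicate 2 did not stand out here. The difference was 0.090 (95% interval -0.12 to 0.30, limma adjusted p = 0.71). It was 0.050 without wild-type replicate 1 and 0.16 without wild-type replicate 3.

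Src, the tyrosine kinase that joins FAK at adhesions, had log2 signals of 8.46, 8.67 and 8.56 on T173I replicates 1, 2 and 3, against 8.53, 8.56 and 8.32 on wild-type replicates 1, 2 and 3. T173I replicate 3 and wild-type replicate 2 were again equal to the last digit. The difference was 0.092 (95% interval -0.16 to 0.34, limma adjusted p = 0.74). Leaving out T173I replicate 1 gave 0.15 and T173I replicate 2 gave 0.038, while leaving out wild-type replicate 2 gave 0.14 and wild-type replicate 3 gave 0.015. These are levels of RNA, and the activity of the kinase was not measured.

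Bcar1 encodes p130Cas, a docking protein that Src phosphorylates and that passes the signal to the adaptor Crk. Its signals were 10.16, 10.39 and 9.86 on T173I replicates 1, 2 and 3, against 10.03, 10.09 and 10.11 on wild-type replicates 1, 2 and 3. The T173I arrays lay on both sides of the wild-type arrays, with an SD of 0.27 in T173I and 0.042 in wild type. The difference was 0.061 (95% interval -0.27 to 0.40, limma adjusted p = 0.88), -0.065 without T173I replicate 2 and 0.20 without T173I replicate 3. Leaving out wild-type replicate 1 gave 0.038.

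**Figure D3:**
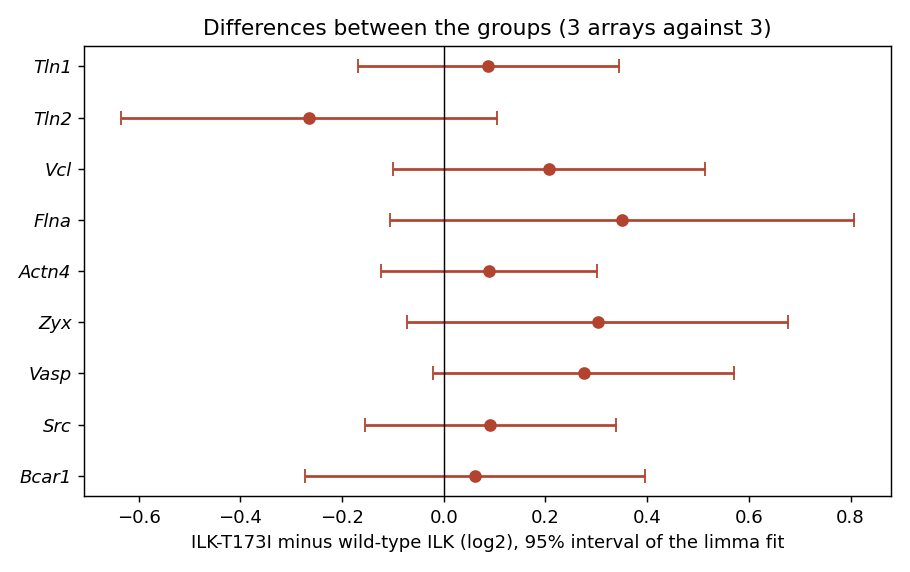
T173I minus wild-type ILK in log2 units for each gene, with the 95% interval of the limma fit over 6 arrays (3 against 3). All 9 intervals include 0; they reach furthest from 0 for Flna, to 0.81, and for Tln2, to -0.63.

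**Figure D4:**
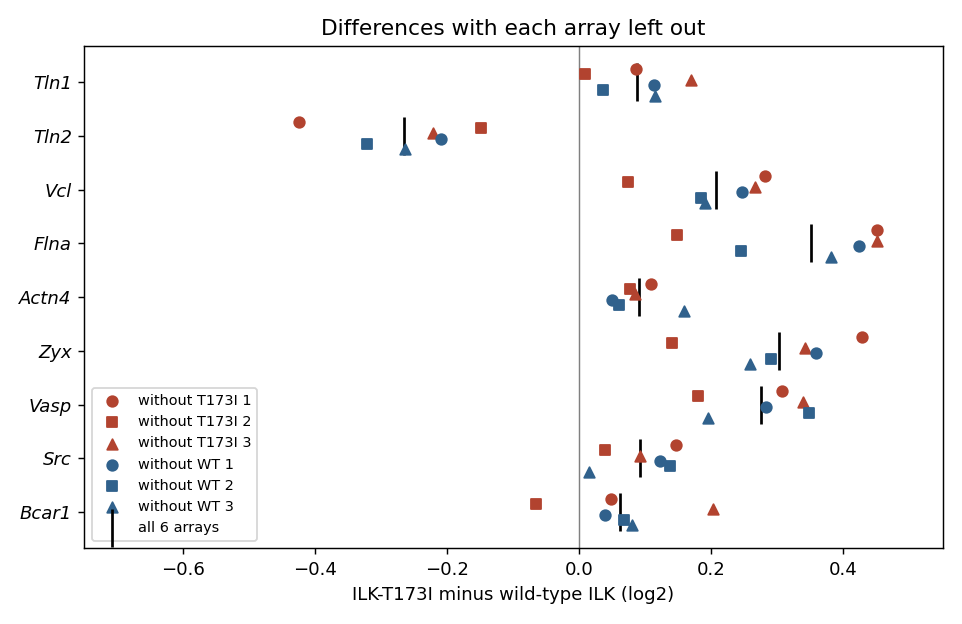
T173I minus wild-type ILK in log2 units with each array left out in turn (red without a T173I array, blue without a wild-type array) and with all 6 arrays (black bars). Without T173I replicate 2 the differences of Vcl, Flna and Zyx are 0.074, 0.15 and 0.14, and that of Bcar1 is below 0.

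The spread between arrays was larger in T173I than in wild type for 7 of the 9 genes, the exceptions being Actn4 and Src, and for 70.6% of all tested genes. The median SD of the 9 genes was 0.23 in T173I and 0.11 in wild type, and that of all tested genes was 0.16 in T173I and 0.098 in wild type. With this spread, the upper ends of the 95% intervals were 0.30 for Actn4, 0.34 for Src and for Tln1, and 0.40 for Bcar1. The lower ends were -0.12 for Actn4, -0.16 for Src, -0.17 for Tln1 and -0.27 for Bcar1. Differences beyond these bounds on either side lay outside the intervals of those 4 genes.

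Other genes of the same machinery were taken as 3 lists without the 10 genes above, of which Pdlim7 and Csrp1 stood in 2. Of 26 tested adaptors with actin-binding or LIM domains, 20 had differences above 0, with a median of 0.23 log2 units. At an unadjusted p under 0.05, 5 were higher in T173I (4.88% of all tested genes were) and 1 was lower (5.31%). Of the 26, 7 lay on all T173I arrays above all wild-type arrays (7.23%) and 0 below (7.95%). In limma's test over all genes 0 passed the adjusted threshold, so none of these differences is a call.

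Tgfb1i1, which encodes Hic-5, a LIM-domain relative of paxillin, had the smallest unadjusted p of the adaptors. Its signals were 6.64, 6.73 and 6.91 on T173I replicates 1, 2 and 3, against 5.85, 5.93 and 6.20 on wild-type replicates 1, 2 and 3. The groups did not overlap, and the difference was 0.77 (95% interval 0.47 to 1.06, limma adjusted p = 0.43). Tes, which encodes testin, a LIM-domain partner of zyxin, had a difference of 0.31 with the T173I arrays at 9.09 to 9.30 and the wild-type arrays at 8.84 to 8.93. Enah, which encodes Mena, a relative of VASP, had a difference of 0.34 with the T173I arrays at 9.98 to 10.36 and the wild-type arrays at 9.84 to 9.94. Trip6, a LIM-domain relative of zyxin, had the opposite sign, a difference of -0.45 (95% interval -0.83 to -0.065, limma adjusted p = 0.47). The relatives of zyxin and VASP named here were picked for their small unadjusted p, and their differences had both signs. Pxn, which encodes paxillin itself and is given here after its values were seen, had the sign opposite to Tgfb1i1. Its difference was -0.34 with overlapping groups (95% interval -0.70 to 0.027, limma adjusted p = 0.49).

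Actn1, the partner of Actn4 in the alpha-actinin family, is given here after its values were seen. It lay at 11.71, 12.35 and 11.77 on T173I replicates 1, 2 and 3, against 11.43, 11.49 and 11.48 on wild-type replicates 1, 2 and 3. Its difference was 0.48 (95% interval 0.060 to 0.90, limma adjusted p = 0.48), and 0.27 without T173I replicate 2. Whether it differs from that of Actn4 was not tested. Leaving out T173I replicate 1 raised the counts over all genes, to 9.83% higher at an unadjusted p under 0.05 and 1.17% past the adjusted threshold. In that fit 12 of the 26 adaptors were higher at an unadjusted p under 0.05 and 2 passed the adjusted threshold, Pdlim1 and Nexn, both also named after their values were seen. The count of higher adaptors was 3 without T173I replicate 3 (3.34% of all tested genes) and 3 without any 1 of the wild-type arrays (2.49% to 4.08%). Pdlim1, a LIM protein bound to alpha-actinin, had 7.41, 9.55 and 9.39 on T173I replicates 1, 2 and 3, against 7.90, 8.13 and 7.60 on wild-type replicates 1, 2 and 3. Nexn, which encodes the actin-binding nexilin, had 6.50, 8.32 and 8.17 on T173I replicates 1, 2 and 3, against 7.34, 7.28 and 7.03 on wild-type replicates 1, 2 and 3. In both genes T173I replicate 1 was the lowest of the 6 arrays while replicates 2 and 3 were the highest, and over all arrays neither passed (limma, adjusted p = 0.56 and 0.73).

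Of 29 tested kinases, phosphatases and docking proteins of adhesions, 21 had differences above 0, with a median of 0.062. At an unadjusted p under 0.05, 4 were higher (4.88% of all tested genes were) and 0 lower (5.31%) in T173I, and 0 passed the adjusted threshold. Dock5, an exchange factor for Rac of the family that works with p130Cas and Crk, was at 8.12, 8.43 and 8.51 on T173I replicates 1, 2 and 3, against 7.28, 7.29 and 7.79 on wild-type replicates 1, 2 and 3. The groups did not overlap, and the difference was 0.90 (95% interval 0.49 to 1.32, limma adjusted p = 0.45). Ptk2b, which encodes Pyk2, the kinase most closely related to FAK, had a difference of 0.50 with overlapping groups, 7.59 to 8.21 on T173I arrays and 7.17 to 7.63 on wild-type arrays. Fyn, a kinase of the Src family, had a difference of 0.31 with overlapping groups (95% interval 0.015 to 0.60, limma adjusted p = 0.49). Csk, the kinase that inhibits Src by phosphorylating its tail, had one of 0.25 without overlap. Its 95% interval, 6.2e-05 to 0.51, began close to 0 (limma, adjusted p = 0.49). The count of higher genes was 1 without T173I replicate 2 (4.13% of all tested genes), T173I replicate 3 (3.34%) or wild-type replicate 2 (2.92%), and 2 without wild-type replicate 1 (2.49%).

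Several of the 10 genes, Vcl, Zyx, Flna and Tln1 among them, are known targets of SRF and its actin-sensing cofactors, the MRTFs. Of 24 other tested genes of that programme 17 had differences above 0, with a median of 0.16. The 24 include Srf, Mrtfa and Mrtfb, which encode the factor and its cofactors. At an unadjusted p under 0.05, 6 were higher (4.88% of all tested genes were) and 0 lower (5.31%) in T173I, and 0 passed the adjusted threshold. Srf itself was at 9.66, 9.94 and 9.78 on T173I replicates 1, 2 and 3, against 9.28, 9.50 and 9.33 on wild-type replicates 1, 2 and 3. All T173I arrays were above all wild-type arrays, by a mean of 0.42 (95% interval 0.16 to 0.68, limma adjusted p = 0.45).

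Cnn2, which encodes an actin-binding calponin, had a difference of 0.64 (95% interval 0.31 to 0.96) and no overlap between the groups (limma, adjusted p = 0.45). Fhl1, a LIM-domain protein of muscle and stretched cells, was at 7.45, 8.93 and 8.26 on T173I replicates 1, 2 and 3, against 7.13, 6.998 and 7.19 on wild-type replicates 1, 2 and 3. Its difference of 1.11 had a 95% interval of 0.29 to 1.93. Itga5, the fibronectin-binding integrin chain, had a difference of 0.32 with the T173I arrays at 8.08 to 8.40 and the wild-type arrays at 7.82 to 8.04. Without T173I replicate 1, Cnn2 and Fhl1 passed the adjusted threshold (limma, adjusted p = 0.036 and 0.044), a fit in which 1.17% of all tested genes did. The count of higher genes was 2 without T173I replicate 3 (3.34% of all tested genes) and 3 without wild-type replicate 2 (2.92%) or 3 (4.08%).

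**Figure D5:**
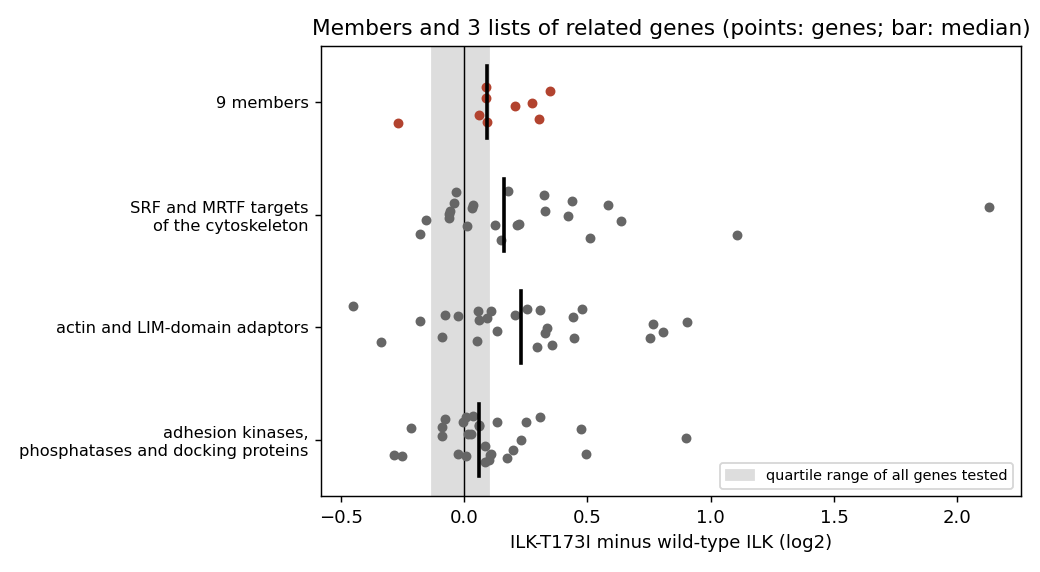
T173I minus wild-type ILK in log2 units for the 9 measured genes (red) and for the tested genes of 3 related lists (grey), with the median of each as a black bar and the range between the quartiles of all tested genes as a grey band. The medians are 0.092 for the 9 genes, 0.16 for SRF and MRTF targets, 0.23 for actin and LIM-domain adaptors and 0.062 for kinases, phosphatases and docking proteins. The list of SRF and MRTF targets includes Srf, Mrtfa and Mrtfb themselves.

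For each of the 9 genes the 2 tested genes with the most similar profile over the 6 arrays were looked up by Pearson correlation, with predicted genes left out. They were Erich5 and Vmn2r54 for Tln1, Tpra1 and Grpel2 for Tln2, Gpatch4 and Prelid3a for Vcl, Fkbp1a and Wdr86 for Flna, and Shprh and Efna5 for Actn4. They were Pa2g4 and Cdv3 for Zyx, Klk1b11 and Mars1 for Vasp, Pla2g10 and Stoml2 for Src, and Stk19 and Tal1 for Bcar1. The correlations ran from 0.983 for Actn4 and Efna5 to 0.999 for Vcl and Gpatch4, and none of the 18 genes is one of the 10 or of the 3 lists. The search ran over the 13308 tested genes without the predicted ones, on only 6 arrays, and the likeness describes these arrays.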

How the data were processed

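Signals were deposited as log2 values from RMA, which the authors ran per the submitters' processing notes; software and version were not stated. Of 41345 probe sets, 23521 had 1 symbol in the platform annotation, 1814 had several and were not used, and 16010 were unnamed here. Of those with 1 symbol, 23328 had an identifier found in the RefSeq gene table of GRCm38.p6. The brightest probe set stood for each of 22180 genes. Genes in the dimmest 40% by mean signal (up to 5.37) were dropped, and the other 13308 were tested with limma 3.58.1 (R 4.3.3; lmFit and eBayes, no covariate, two-sided, Benjamini-Hochberg over all genes tested, threshold 0.05). Intervals are 95% intervals of that fit. An exact permutation test of 3 arrays against 3 cannot go below 0.1. The fit was tested on simulated data. Precision is limited by having 3 arrays a group.

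The 10 genes, the lists and the tests were chosen with earlier results of these data known. The rule for named genes took all 10, the up to 4 members of each list with the smallest unadjusted p, and the 2 most alike genes per member, leaving out predicted genes. Alternatives covered the dim-gene filter, the prior, the normalization, the way probe sets were combined, array weighting, a replicate block, and each array left out.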

Additional observations from a re-analysis of the deposited data

How the results depend on the processing

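No alternative brought any of the 9 genes past the adjusted threshold in limma's fit, and Tln2 could not be fitted under the stricter filter, which left it out. Over all tested genes 0 passed, and 156 did without T173I replicate 1; the range with each array left out was 0 to 156. The 1357 genes at an unadjusted p under 0.05 became 2856 with array weights and 670 (without wild-type replicate 1) to 2946 (without T173I replicate 1), with 795 without wild-type replicate 2. Of the 9 genes 0 had an unadjusted p under 0.05 with all arrays, against 2 with array weights (Tln2 and Zyx), 1 with the replicate block (Vasp) and 0 to 2 with each array left out, the 2 being Tln2 and Zyx without T173I replicate 1 (Vasp was the 1 without wild-type replicate 2). Bcar1 changed sign with array weights (-0.10) and ran from -0.065 (without T173I replicate 2) to 0.20 with each array left out; no other gene of the 9 changed sign. Over all tested genes the deviations of same-numbered arrays from their group means correlated weakly (0.049, 0.067 and 0.048 for replicates 1, 2 and 3). Whether a shared number marks a shared culture or batch cannot be told from these values. The replicate block gave 1508 genes at an unadjusted p under 0.05 in limma's fit and 0 past the adjusted threshold. With each array left out, 3 to 12 adaptors, 1 to 6 kinases and docking proteins and 2 to 9 SRF and MRTF targets were higher at an unadjusted p under 0.05; alternatives for the lists, the talin comparison and the likeness were chosen after seeing the data. The other probe sets of the 9 genes could not be tried because each had 1. Signal over background was not available, so how far dim probe sets such as that of Tln2 understate a change was not tested.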
